A study of Mus musculus with 6 samples.

Results

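The immediate early genes described here are 35 mouse genes, listed by symbol as known members of these families, with earlier results of these data in view, and all 35 were found among the 27179 gene IDs of the count table. They comprise the Fos and Jun families (7 genes), the Egr family (3), the Nr4a family (3), the Dusp phosphatases (6) and 16 further rapidly induced genes. RNA was sequenced from mouse group 2 innate lymphoid cells (ILC2s), tissue lymphocytes that lack an antigen receptor and secrete type 2 cytokines. The cells were sorted by a gate on Chat, the enzyme that makes acetylcholine, into 3 Chat negative and 3 Chat positive samples, each numbered 1 to 3. The sources used here do not give strain, age, tissue, stimulus or the means by which Chat was detected. Whether samples came from different animals is also not in the labels, so the spread behind every p-value may be technical.

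Immediate early genes are transcribed within minutes of a signal from transcription factors already present in the cell, such as SRF and CREB, and their messages are short-lived. Fos and Jun proteins pair through leucine zippers to form AP-1, which binds DNA and regulates the genes of the later response. Batf, a smaller relative, pairs with Jun proteins and cooperates with Irf4 in activated lymphocytes. Dusp proteins dephosphorylate MAP kinases, and Zfp36 proteins destroy cytokine messages, so both act as brakes on the response that induced them.

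The windows before the start sites of Fos, Batf, Btg2 and Dusp1, which differed the same way between the gates for every number, are shown with that of Dusp5. Each holds a CREB motif, and that of Dusp5 also holds SRF motifs. Both kinds of motif were more frequent among members than among all genes. Each is the 250 bases before the RefSeq transcription start, read 5′ to 3′ on the gene's strand, in lower case. Capitals mark the CRE core TGACGT or its complement ACGTCA, the full CRE TGACGTCA, the CArG box bound by SRF, and the kappaB motif.
Fos (GRCm38.p6, chr12:85473640-85473889, plus strand): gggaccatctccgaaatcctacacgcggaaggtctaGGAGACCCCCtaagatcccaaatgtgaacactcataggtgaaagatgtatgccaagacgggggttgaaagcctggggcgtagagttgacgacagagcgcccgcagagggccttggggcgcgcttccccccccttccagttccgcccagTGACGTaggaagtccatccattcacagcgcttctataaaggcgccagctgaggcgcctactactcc
Batf (GRCm38.p6, chr12:85686470-85686719, plus strand): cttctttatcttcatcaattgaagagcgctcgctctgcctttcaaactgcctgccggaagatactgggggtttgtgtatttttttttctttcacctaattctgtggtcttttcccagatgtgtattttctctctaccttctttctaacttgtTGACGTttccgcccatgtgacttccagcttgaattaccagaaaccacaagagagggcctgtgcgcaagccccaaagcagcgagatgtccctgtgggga
Btg2 (GRCm38.p6, chr1:134079156-134079405, minus strand): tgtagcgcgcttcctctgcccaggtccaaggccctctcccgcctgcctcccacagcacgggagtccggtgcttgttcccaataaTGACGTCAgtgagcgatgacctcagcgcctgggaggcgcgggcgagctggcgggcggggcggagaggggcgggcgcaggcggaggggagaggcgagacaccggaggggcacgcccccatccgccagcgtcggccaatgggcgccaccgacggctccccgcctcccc
Dusp1 (GRCm38.p6, chr17:26508473-26508722, minus strand): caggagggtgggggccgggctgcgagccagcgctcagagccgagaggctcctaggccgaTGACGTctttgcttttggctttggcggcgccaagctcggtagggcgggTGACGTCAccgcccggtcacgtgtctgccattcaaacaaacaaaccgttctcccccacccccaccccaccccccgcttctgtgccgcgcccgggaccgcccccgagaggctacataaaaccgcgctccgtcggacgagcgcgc
Dusp5 (GRCm38.p6, chr19:53528895-53529144, plus strand): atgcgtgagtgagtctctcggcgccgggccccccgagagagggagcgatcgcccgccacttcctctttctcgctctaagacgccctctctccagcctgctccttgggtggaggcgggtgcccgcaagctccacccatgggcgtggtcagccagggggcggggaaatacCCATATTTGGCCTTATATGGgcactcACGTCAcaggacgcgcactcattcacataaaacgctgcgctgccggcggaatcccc
RefSeq windows were found for 27 of the 35 members, 32 windows in all. The core TGACGT, searched on both strands, stood in 11 of these windows (34.4%, 9 genes), against 6.47% of all 32851 mouse windows of the same length. The full element TGACGTCA, which contains the core, stood in the windows of Btg2 and Dusp1 (6.2% of windows, against 1.55% of all). A CArG box stood in 6 windows of 3 genes (Dusp5, Egr2 and Zfp36), 18.8% against 1.47% of all, and 4 of these were overlapping or nearby windows of Egr2. The AP-1 site TGANTCA stood in 1 window, that of Zfp36l1 (3.1%, against 6.75% of all), and the kappaB motif in 5 windows (15.6%, against 7.25%). The motifs were changed after a first search had been seen: that search used TGACGTNA (both strands), which contains the core and stood in 4 windows (12.5%, against 2.52% of all), and TGACGT replaced it because it had missed the element in the window of Fos. The kappaB motif was added at the same time, so the shares for both are descriptions of motifs picked with these windows known. A match is a description of these letters and not a measured binding site. In the window of Fos, the capitals nearest the start are the CRE core and those farther upstream the kappaB motif. Of the 8 tested genes with a core, 6 had estimates below 0 in the comparison described below, beside 65.6% of the tested members. Of these 6, all but Fos took the other sign under at least 1 alternative. Fos, Btg2 and Per1 were lower in Chat positive cells for 3 of 3 numbers, as were 37.5% of tested members and 17.3% of all tested genes. Batf and Dusp1 were higher for 3 of 3, as were 21.9% of tested members and 22.3% of all tested genes. A link between the core and the direction was not tested.

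Libraries held 37154269 to 50361306 counts. Chat itself, which checks the labels, ran from 16.6 to 26.5 CPM (read counts relative to library sizes scaled by TMM) in the negative gate and from 169 to 205 CPM in the positive gate, and was the only gene past the threshold of 5% in edgeR's quasi-likelihood test (log2 change 3.21, SE 0.21, adjusted p = 0.0174). Libraries that share a number deviated alike, and both libraries numbered 2 stood apart: within a gate, the chi-square per degree of freedom was 132 to 187 in pairs with number 2 and 31.5 and 32.2 between numbers 1 and 3. Defining ILC2 genes were abundant in every library, with Gata3 at 1603 to 2545 CPM and Il5 at 5732 to 13770 CPM. Lyz2, Csf1r, Cd8a, Ms4a2 and Cpa3, which define myeloid cells, cytotoxic T cells and mast cells, were at 0.116 CPM at most or at 0 counts, but other markers on the same lists were counted. Cd3g stood at 14.6 to 39.8 CPM, Cd79b at 66.2 to 85.5 CPM, Mcpt8 of basophils at 24.9 to 203 CPM, and the myeloid markers Cd68 and Adgre1 at 6.86 to 21.3 and 0.894 to 3.95 CPM. The low-count filter kept 12967 genes and 32 of the 35 members. Fosb, Egr3 and Nr4a3 did not pass it.

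No immediate early gene passed the threshold between the gates. The members' changes were small, from -0.35 for Fos to 0.96 for the sparsely counted Nr4a2 on the log2 scale (Chat positive minus Chat negative), and the smallest adjusted p among them was 1.00 in edgeR. The background of calls was 0.00771% of all tested genes. At an unadjusted p under 0.05 edgeR gave 2 members, Gadd45b and Batf, both higher in Chat positive cells, with a background of 1.15% higher at this level over all tested genes. DESeq2 and limma-voom also called 0 members, each with 2 at an unadjusted p under 0.05, against 446 and 336 of all 12967 tested genes. Of the 32 tested members, 21 lay below 0 and 11 above (34.4% above, against 50.7% of all tested genes). Their median log2 change was -0.11, beside 0.00 for all tested genes. That median was 0.07 without Chat positive 2, and 19 members then lay above 0, while 15 lay above 0 without Chat negative 1 (median -0.02) and 15 without Chat negative 3 (median -0.01). The excess of lower members thus changed as single libraries were left out, which leaves the gates with different numbers. Leaving out both libraries of a number was an alternative chosen after the values were seen. With a block for the number, 13, 13 and 14 members then lay above 0 without numbers 1, 2 and 3 (medians -0.061, -0.051 and -0.075). Without the block and without number 2, 14 lay above 0 (median -0.04).

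**Figure D1:**
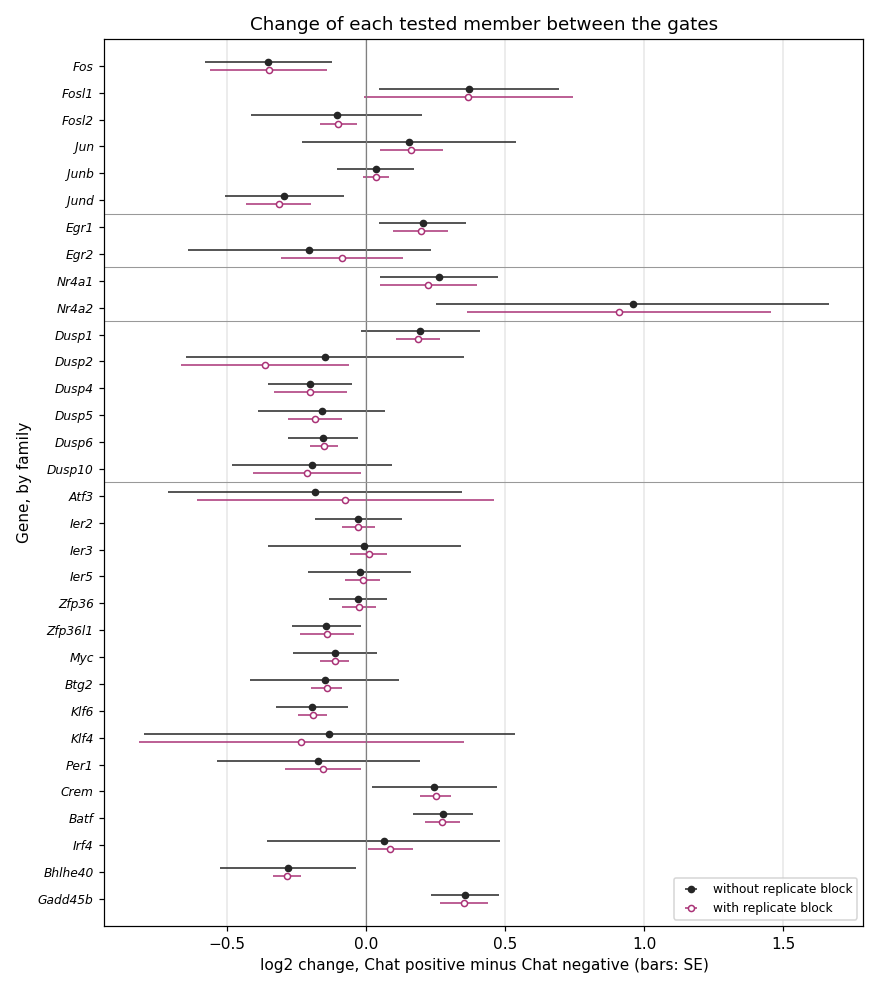
Log2 change (Chat positive minus Chat negative, horizontal axis) of each tested immediate early gene, grouped by family, with bars of 1 SE. Filled points are the fit without and open points the fit with a block for the replicate number. The point estimates nearly coincide, from -0.35 for Fos to 0.96 for Nr4a2 without the block, while the blocked bars are narrower for most genes.

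Fitted with a block for the replicate number, edgeR again called 0 members, although 44 genes were called over the whole table (0.339%). Chat was not among the 44 (log2 change 3.24, SE 0.25, adjusted p = 0.0961), and with non-robust dispersions or in limma-voom the blocked count over the whole table was 1. Over the 32 members themselves, the deviations of same-numbered libraries correlated at 0.05, 0.86 and 0.41 for numbers 1, 2 and 3. The values of numbers 1 and 3 lay below the 0.49 of Chat negative 1 with Chat positive 3. They also lay below the 0.71 of Chat negative 3 with Chat positive 1. Among these genes the pairing of numbers 1 and 3 is thus not apparent. In this fit 9 of the 32 members (28.1%) had an unadjusted p under 0.05, against a background of 16.5%. They were Batf, Gadd45b, Crem and Dusp1 among the higher and Bhlhe40, Klf6, Jund, Dusp6 and Btg2 among the lower genes. DESeq2 with the block, which called 5.48% of the 8693 genes it gave an adjusted p, called 6 of them, higher for Batf, Gadd45b and Crem and lower for Bhlhe40, Klf6 and Jund. Limma-voom with the block called 0 members, with 9 at an unadjusted p under 0.05, against 2082 of all 12967 tested genes. Without both libraries of number 2 the blocked edgeR fit also called 0 members. It gave 9 members at an unadjusted p under 0.05, against 1957 of all 13025 genes tested in that fit. Without both of number 3 it called 5 of the 6 (Jund, Crem, Batf, Bhlhe40 and Gadd45b), against a background of 5.43%. The calls thus depended on the model and on which libraries were fitted. Over the 3 numbers, 12 members (37.5%) were lower in Chat positive cells each time, against a background of 17.3%, and 7 (21.9%) were higher each time, against 22.3%.

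The AP-1 genes of these cells were dominated by Jun family members and Batf, with little Fos. Ordered by level per length (RPKM, CPM per kilobase of the longest transcript), Junb was the most abundant of all members, at 325 to 425 RPKM. Batf followed at 292 to 402 RPKM and Jund at 155 to 319 RPKM. The ranges of these neighbours overlapped. Within every library Junb lay above Batf (ratio of Batf to Junb 0.711 to 0.997). Batf lay above Jund except in Chat negative 1, where the ratio of Batf to Jund was 0.915. The order of Batf and Jund rests on the division by transcript length. In CPM, Jund lay above Batf in every library except Chat positive 2. Fosl2, a Fos relative without the strong activation domain of Fos, stood at 8.68 to 17.3 RPKM and Jun at 3.45 to 9.38. Fos itself stood at 1.48 to 2.27 RPKM, and Fosl1 at 0.469 to 0.725. Jun family genes made up 97.1% to 98.0% of the summed RPKM of the Fos and Jun families in every library. Fosl2 made up 77.1% to 88.4% of the Fos family's sum.

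Junb, a Jun protein that supports type 2 cytokine transcription in T cells (Entrez 16477, mm10 chromosome 8, 84976909 to 84978748), stood at 742, 588 and 733 CPM in libraries 1, 2 and 3 of the negative gate and 768, 615 and 730.4 CPM in those of the positive gate. The gates overlapped, and the library numbered 2 was lowest in each. The log2 change was 0.03 (SE 0.14, edgeR adjusted p = 1.00). An exon of Prdx2 on the opposite strand overlaps Junb by 173 bases, and no source used here gives the strand setting of the counting, so reads of that stretch cannot be assigned. The other members with an exon overlapped on the opposite strand are Bhlhe40, Crem, Dusp1, Dusp5, Fosl1, Jun, Jund, Zfp36 and Zfp36l1, and Fosl1 shares 1055 bases with Ccdc85b.

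Jund, the Jun protein that is made constitutively and often restrains growth, stood at 531, 397 and 407 CPM in the negative gate and 431, 259 and 401 CPM in the positive gate, in the order of the numbers. In 3 of 3 numbers the positive gate was lower, by the widest margin for number 2, while the gates overlapped. Its log2 change was -0.29 (SE 0.21, edgeR adjusted p = 1.00). With the block it was -0.31 (SE 0.12), with adjusted p = 0.284 in edgeR and 0.0339 in DESeq2. Without Chat positive 2 the unblocked log2 change was -0.10, the smallest over the libraries left out, and without both libraries of number 2 the blocked value was -0.17. A noncoding gene on the opposite strand, Gm11175, overlaps Jund by 543 bases.

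Fos, the classic inducible AP-1 subunit, stood at 4.78, 4.54 and 3.73 CPM in the negative gate and 3.11, 3.89 and 3.23 CPM in the positive gate. Each number was lower in the positive gate, with overlap between the gates through Chat positive 2. The gates differed by a log2 change of -0.35 (SE 0.23, edgeR adjusted p = 1.00). Fosl1, an AP-1 subunit that accumulates after sustained signalling, stood at 0.875, 1.04 and 0.926 CPM against 1.35, 1.11 and 1.22 CPM, without overlap, at a log2 change of 0.37 (SE 0.32). Fosb had 1 count in Chat positive 2 and 0 counts in the other 5 libraries. Counting error lets a count of 0 stand for as many as 3 counts, which is 0.0583 to 0.0811 CPM in these libraries. Fosl2 and Jun overlapped between the gates, at log2 changes of -0.10 (SE 0.31) and 0.15 (SE 0.38).

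**Figure D2:**
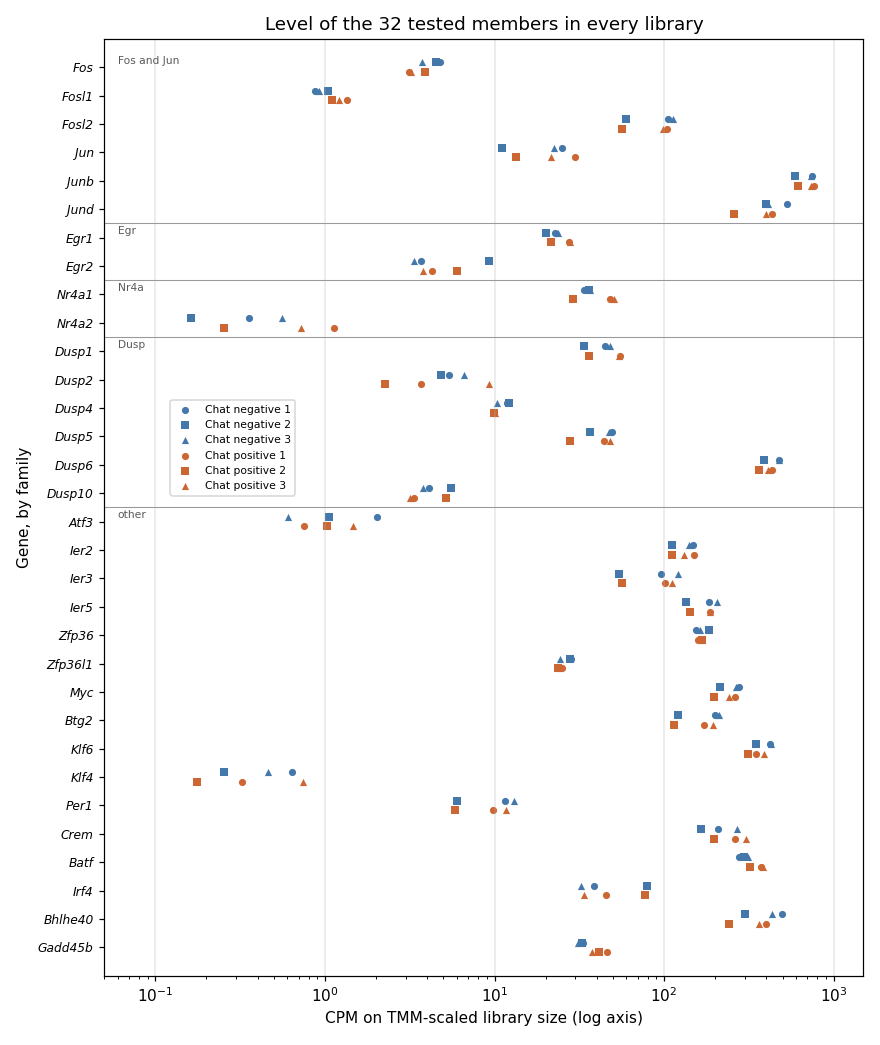
CPM (log axis) of the 32 tested immediate early genes in every library, by family, in blue for Chat negative and orange for Chat positive cells, with circles, squares and triangles for numbers 1, 2 and 3. Levels span from 0.161 CPM for Nr4a2 to 768 CPM for Junb, and the squares lie to the left for most genes in both gates.

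Batf had the smallest p of the AP-1 genes. Batf (Entrez 53314, chromosome 12, 85686720 to 85709087) stood at 278, 296 and 314 CPM in libraries 1, 2 and 3 of the negative gate. In those of the positive gate it stood at 371, 321 and 384 CPM. Every Chat positive library lay above every Chat negative one, with number 2 the closest pair. The log2 change was 0.28 (SE 0.11, edgeR unadjusted p = 0.0377, adjusted p = 1.00). With the block it was 0.28 (SE 0.06), with adjusted p = 0.108 in edgeR and 0.0156 in DESeq2, and over all alternatives it stayed between 0.20 and 0.35. In all, 3 members (9.4% of those tested) were higher without overlap, Batf, Gadd45b and Fosl1, against a background of 4.53%. Dusp4 was the 1 member lower without overlap, against 3.61%.

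Because Batf pairs with Jun proteins, its level per length was set beside theirs within each library. The ratio of Batf to Jund RPKM was 0.915, 1.30 and 1.35 in the negative gate and 1.51, 2.16 and 1.67 in the positive gate, without overlap. That of Batf to Junb was 0.711, 0.952 and 0.811 against 0.916, 0.987 and 0.997, with overlap through number 2. These ratios were formed after their values were seen and were not tested. Irf4, the partner of Batf at shared DNA elements, stood at 38.8, 78.9 and 32.1 CPM in the negative gate and 45.6, 77.3 and 33.6 CPM in the positive gate. It was highest in number 2 of each gate and overlapped between gates, at a log2 change of 0.06 (SE 0.42).

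The Egr genes, zinc finger factors induced by MAP kinase signalling, were low. Egr1 (Entrez 13653) stood at 22.8, 20.2 and 23.6 CPM in the negative gate and 27.4, 21.4 and 27.8 CPM in the positive gate. Each number was higher in the positive gate, with overlap through number 2, at a log2 change of 0.20 (SE 0.16, edgeR adjusted p = 1.00). Egr2, a restraint on lymphocyte activation, stood at 3.69, 9.25 and 3.34 CPM against 4.30, 6.02 and 3.80 CPM, so number 2 was highest in each gate. Its log2 change was -0.20 (SE 0.44), and 0.43 without Chat negative 2. Egr3 had 4 counts in each number 3 library, 1 in Chat positive 2 and 0 in the other 3 libraries.

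Nr4a genes encode orphan nuclear receptors that are induced by antigen receptor or calcium signals. Nr4a1 (Entrez 15370) stood at 33.6, 35.95 and 36.5 CPM in Chat negative cells, a narrow range. In the positive gate it stood at 47.7, 29.1 and 50.4 CPM, so numbers 1 and 3 lay above all Chat negative libraries and number 2 below them. Its log2 change was 0.26 (SE 0.21, edgeR adjusted p = 1.00), and 0.47 without Chat positive 2. Nr4a2 had 15, 7 and 24 counts against 42, 13 and 29 counts, more in Chat positive cells for each number, at a log2 change of 0.96 (SE 0.70) that ranged from 0.43 to 1.43 as each library was left out. Nr4a3 had 1 count in Chat negative 1, 4 counts in Chat positive 3 and 0 elsewhere.

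Of the 6 Dusp phosphatases, 5 had lower estimates in Chat positive cells, beside 6356 of all 12967 tested genes. Among these 5, Dusp2 and Dusp5 took the other sign under at least 1 alternative. The family's median log2 change was -0.16, with 0 past the threshold in edgeR (0 at an unadjusted p under 0.05, and 0 by DESeq2). Dusp6, a cytoplasmic phosphatase specific for ERK (Entrez 67603, chromosome 10, 99263231 to 99267489), was by far the most abundant. It stood at 476, 387 and 479 CPM in the negative gate and 434, 364 and 408 CPM in the positive gate, lower for each number with overlap through Chat negative 2. The log2 change came to -0.15 (SE 0.13), and with the block -0.15 (SE 0.05, edgeR adjusted p = 0.208). Dusp4, a nuclear MAP kinase phosphatase, stood at 11.9, 12.2 and 10.4 CPM against 9.95, 9.98 and 10.01 CPM, without overlap, at a log2 change of -0.20 (SE 0.15).

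Dusp1, a nuclear phosphatase for p38 and JNK, differed in sign from the other 5. It stood at 44.8, 33.6 and 48.1 CPM in the negative gate and 54.8, 35.9 and 54.2 CPM in the positive gate, higher for each number. The log2 change was 0.20 (SE 0.21), and 0.19 with the block (SE 0.08, edgeR adjusted p = 0.290). Dusp5, which holds ERK in the nucleus, had a log2 change of -0.16 (SE 0.23), and 0.05 without Chat positive 2. Dusp10 and Dusp2 averaged under 6 CPM in each gate and had log2 changes of -0.19 (SE 0.29) and -0.15 (SE 0.50). That of Dusp10 ran from -0.46 (without Chat positive 2) to -0.02 (without Chat negative 2), and that of Dusp2 from -0.94 (without Chat positive 3) to 0.21 (without Chat positive 2), with -0.36 under the block.

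Among the 16 other members, Gadd45b had the smallest p without the block. Gadd45b, a stress-induced activator of p38 signalling (Entrez 17873, chromosome 10, 80930091 to 80932204), stood at 33.4, 32.8 and 31.0 CPM in libraries 1, 2 and 3 of the negative gate. In those of the positive gate it stood at 45.8, 41.2 and 37.5 CPM, above every Chat negative library. This gave a log2 change of 0.36 (SE 0.12, edgeR unadjusted p = 0.0222, adjusted p = 1.00), and it stayed between 0.28 and 0.41 over all alternatives. With the block the adjusted p was 0.114 in edgeR and 0.0279 in DESeq2. Unlike most members, Gadd45b was not lowest in number 2 of either gate.

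Crem, a CREB relative whose inducible short forms repress cyclic AMP targets (Entrez 12916), showed a regular difference within numbers beneath a large difference between them. It stood at 209, 165 and 270.4 CPM in the negative gate and 262, 197 and 306 CPM in the positive gate. The gates overlapped, with Chat negative 3 above Chat positive 1, yet Chat positive was higher for each number. This comparison within numbers rests on a pairing that no label states. The log2 change was 0.25 (SE 0.22, edgeR adjusted p = 1.00), and 0.25 with the block (SE 0.06, adjusted p = 0.102 in edgeR and 0.0112 in DESeq2). The unblocked value ranged from 0.08 (without Chat positive 3) to 0.44 (without Chat negative 3) as each library was left out. The count table does not separate the isoforms of Crem.

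Bhlhe40, a basic helix-loop-helix repressor that restrains Il10 in T cells, had the smallest blocked p of all members. Bhlhe40 (Entrez 20893, chromosome 6, 108660629 to 108666925) stood at 493, 299.6 and 431 CPM in libraries 1, 2 and 3 of the negative gate. In those of the positive gate it stood at 401, 242 and 364 CPM. Each number was lower in the positive gate, while the gates overlapped because number 2 was low in both. The log2 change came to -0.28 (SE 0.24, edgeR adjusted p = 1.00). With the block it was -0.28 (SE 0.05), with adjusted p = 0.0617 in edgeR, 0.0983 in limma-voom and 1.77e-04 in DESeq2. As each library was left out, the unblocked value ranged from -0.46 (without Chat negative 2) to -0.09 (without Chat positive 2).

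Klf6, a zinc finger factor of wound responses, followed the same pattern. It stood at 422, 347 and 429.6 CPM in the negative gate and 349.6, 313 and 387 CPM in the positive gate, lower for each number with overlap through Chat negative 2. The log2 change was -0.19 (SE 0.13), and with the block -0.19 (SE 0.05, adjusted p = 0.142 in edgeR and 0.0371 in DESeq2). Btg2, an antiproliferative partner of the CCR4-NOT deadenylase, stood at 199, 120.3 and 211 CPM against 172, 114 and 193 CPM. Its log2 change was -0.15 (SE 0.27), and -0.14 with the block (SE 0.06, edgeR adjusted p = 0.259). Myc, the growth regulator, was lower for each number too, at 276, 213 and 267 CPM against 262, 198 and 241 CPM, a log2 change of -0.11 (SE 0.15).

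**Figure D3:**
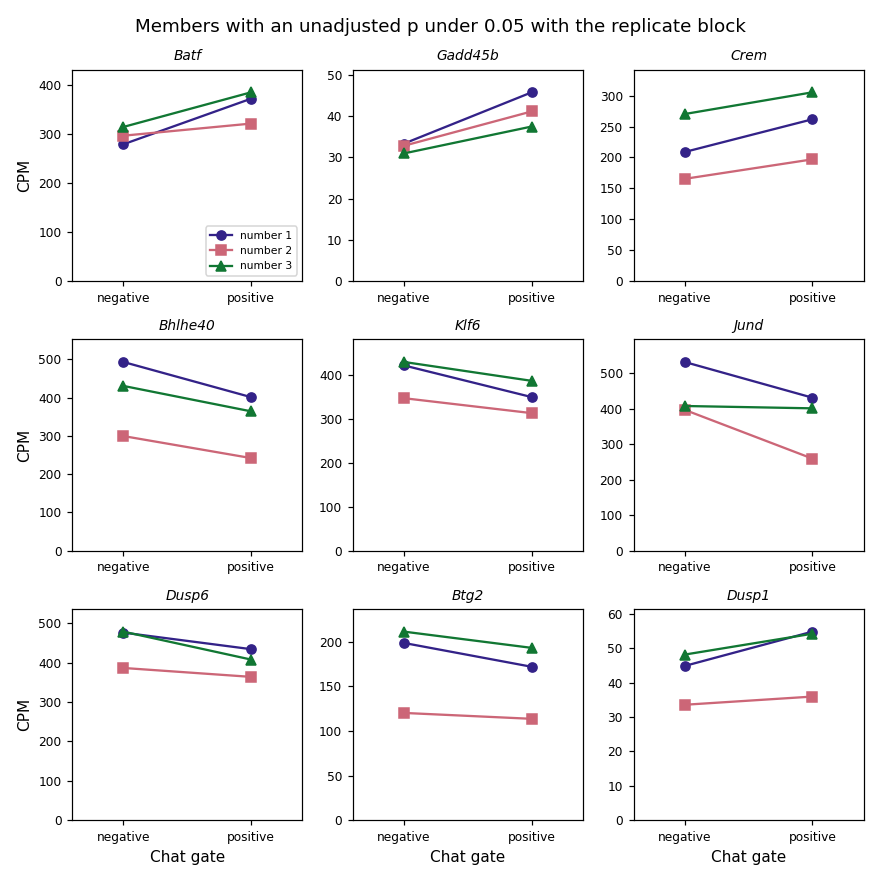
CPM of the 9 members with an unadjusted p under 0.05 in the blocked edgeR fit, in Chat negative and Chat positive cells, with a line joining the libraries that share a number. Every line rises for Batf, Gadd45b, Crem and Dusp1 and every line falls for the other 5 genes. The genes were picked by that fit, which favours differences that agree over the numbers, so this agreement follows in part from the choice. Over all tested genes, 22.3% were higher and 17.3% lower for 3 of 3 numbers. None of the 9 passed the adjusted threshold in that fit.

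The remaining members overlapped between the gates. Zfp36, which degrades AU-rich cytokine messages, averaged 168 ± 15.9 CPM in the negative gate and 164 ± 5.12 CPM in the positive gate (SD, n = 3 each), a log2 change of -0.03 (SE 0.10). Its relative Zfp36l1 averaged 26.7 ± 2.15 and 24.2 ± 0.572 CPM, a log2 change of -0.14 (SE 0.12). Ier2, Ier3 and Ier5 had log2 changes of -0.03, -0.01 and -0.02. In all, 15 members took the other sign under at least 1 alternative: Ier2, Ier3, Ier5, Zfp36, Junb, Jun, Fosl2, Egr2, Dusp2, Dusp5, Atf3, Btg2, Klf4, Per1 and Irf4. Per1, a circadian repressor that glucocorticoids also induce, averaged 10.2 ± 3.68 and 9.06 ± 2.97 CPM. Atf3, a stress-induced repressor, averaged 1.23 ± 0.731 and 1.08 ± 0.358 CPM, and Klf4 0.452 ± 0.193 and 0.415 ± 0.296 CPM.

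Many immediate early genes were low in both libraries numbered 2, a pattern described after the values were seen and not tested. Of the 32 tested members, 20 (62.5%) were lowest in number 2 of both gates, against 29.6% of all tested genes. Irf4, Egr2 and Dusp10 (9.4%, against 31.2%) were highest there. For 26 members (81.2%, against 71.8% of all tested genes) the log2 difference of number 2 from the mean of numbers 1 and 3, averaged over the gates, exceeded the log2 change between gates, so a larger difference between numbers than between gates was common to most genes of these libraries. Irf4 differed most among members above 10 CPM on average, in the upward direction, and Jun most in the downward direction. Jun stood at 11.0 and 13.4 CPM in number 2 and 21.6 to 29.9 CPM in the other libraries. Fosl2 stood at 59.5 and 56.7 CPM in number 2 and at 98.3 to 113 CPM in the others, without overlap. Ier3, a survival factor induced by NF-kappaB, stood at 54.2 and 56.7 CPM in number 2 and 95.7 to 121 CPM in the others. The median deviation of the 32 members from their own means, as log2(CPM + 0.1), was -0.16 and -0.24 in the number 2 libraries of the negative and the positive gate, and 0.11 to 0.15 in the other 4.

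**Figure D4:**
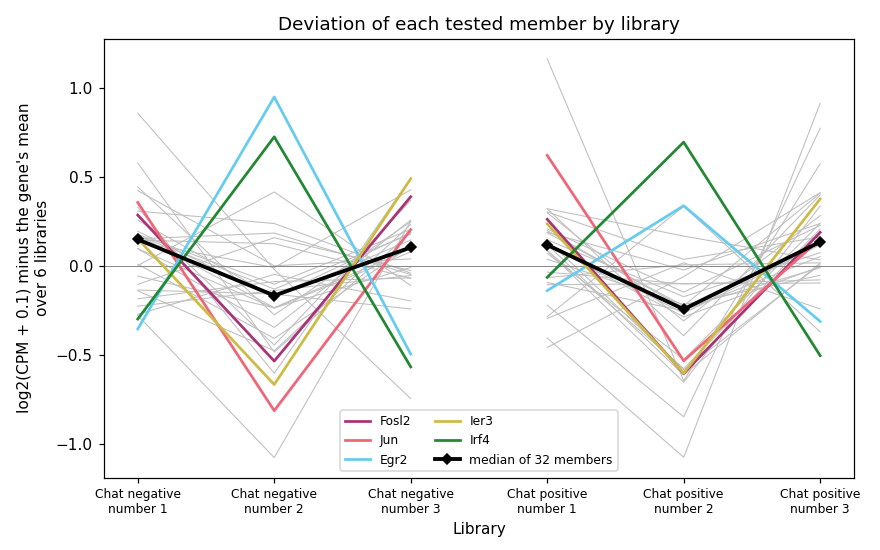
Deviation of each of the 32 tested members from its own mean over 6 libraries, as log2(CPM + 0.1), with thin lines joining the values of 1 gene within a gate and diamonds for the median. The median is at -0.16 and -0.24 in the number 2 libraries and between 0.11 and 0.15 elsewhere, and Irf4 and Egr2 run against it.

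Other measures moved with number 2 as well. The summed level of 6 mast cell and basophil markers was 30.9 and 25.0 CPM in number 2 of the negative and the positive gate and 124 to 203 CPM in the others, nearly all of it from Mcpt8, while Cpa3, Ms4a2 and Tpsb2 had 0 counts in all 6 libraries. The 7 epithelial and tuft cell markers summed to 104 and 114 CPM in number 2 and 160 to 209 CPM elsewhere, from Epcam and Avil, with Pou2f3 and Trpm5 at 0 counts. The 7 myeloid markers summed to 8.58 and 8.57 CPM against 20.5 to 24.2 CPM, mostly from Cd68. The 7 T cell markers summed to 24.0 and 18.5 CPM against 34.2 to 45.1 CPM, mostly from Cd3g. The sparse T cell markers Cd4 and Cd5 had their highest counts, 50 and 6, in Chat positive 2. Of the 12 ILC2 markers, 6 were lowest in number 2 of both gates, among them Gata3 at 1829 and 1603 CPM, and 2 were highest there. Those 2 were Il2ra, the interleukin 2 receptor alpha chain, at 5777 and 5755 CPM against 3619 to 4135 CPM, and Kit, at 247 and 276 CPM against 153 to 194 CPM. Of the 14 heat shock genes, which handling of cells can induce, 8 were highest and 4 lowest in number 2 of both gates. Their summed level was 2600 and 2535 CPM in number 2 against 2198 to 2431 CPM. The chaperone Hsph1 stood at 109.9 and 103 CPM against 63.6 to 76.3 CPM. The part of these differences in the levels of the immediate early genes was not tested. In bulk RNA, fewer cells expressing a gene and less RNA per cell cannot be told apart.

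The neighbours of these genes in the same pathways were counted in 4 lists. Of the 29 kinases, coactivators and SRF or CREB cofactors that act upstream, all 29 were tested and 24 had lower estimates in Chat positive cells. Over all 12967 tested genes, 6356 had lower estimates. In edgeR 0 of the list passed, with 2 lower at an unadjusted p under 0.05 (background 1.28%), and the median log2 change was -0.09. With the block 0 passed in edgeR, with 6 lower at an unadjusted p under 0.05, against 1076 of all 12967 tested genes. In DESeq2 with the block 3 passed, all lower, against a background of 5.48%. These were Crtc3, a CREB coactivator (log2 change -0.34 with the block, DESeq2 adjusted p = 0.00870), Rps6ka1 (0.0206) and Ep300 (0.0245). The histone acetyltransferase Ep300 stood at 113, 107 and 118 CPM against 76.6, 102 and 89.2 CPM, a log2 change of -0.34. Its relative Crebbp, which binds phosphorylated CREB, stood at 30.3, 24.0 and 22.6 CPM against 17.8, 17.3 and 22.4 CPM, a log2 change of -0.42. For both genes the gates did not overlap. Rps6ka1, a kinase activated by ERK, also lay lower without overlap, at a log2 change of -0.18. Ep300, Crebbp and Rps6ka1 were the 3 genes of this list lower without overlap, against a background of 3.61%. Prkacb, a catalytic subunit of protein kinase A, had a log2 change of -0.21.

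Of 22 other AP-1 and bZIP genes, 19 were tested, and 11 had lower and 8 higher estimates. In edgeR 0 passed with or without the block, with 1 lower at an unadjusted p under 0.05 without it (background 1.28%). That gene was Atf7, a relative of Atf2, with a log2 change of -0.43 and no overlap. Atf7 and Atf6 were the 2 genes of this list lower without overlap, against a background of 3.61%. Atf5, Nfil3 and Atf2 had log2 changes of 0.50, -0.18 and -0.15. Nfil3, a factor needed for innate lymphoid cell development, was abundant, at 410.5 to 556.5 CPM. It passed in DESeq2 with the block (adjusted p = 0.0279), the 1 gene of this list that did, against a background of 5.48%.

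Of 36 other immediate early and feedback genes, 32 were tested, with 16 estimates on each side of 0 and 0 past the threshold in edgeR. Nfkbia, which holds NF-kappaB in the cytoplasm, stood at 309, 311 and 279 CPM against 444, 339 and 381 CPM, without overlap, a log2 change of 0.37 (edgeR unadjusted p = 0.0197, adjusted p = 1.00). It was the 1 gene of this list higher without overlap, against a background of 4.53%, and Rgs2 was the 1 lower, against 3.61%. Nfkbiz had a log2 change of 0.38. Tnfaip3, a ubiquitin-editing inhibitor, and Rgs1, a regulator of G protein signalling, had log2 changes of 0.40 and 0.37. Each passed in edgeR with the block (adjusted p = 0.0419 for both, against a background of 0.339%), the 2 genes of this list that did, and neither passed in limma-voom with the block (adjusted p = 0.0856 for both). DESeq2 with the block called 5 genes of the list, these 2, Nfkbia and Nfkbiz higher and Zfp36l2 lower, against a background of 5.48%. Of the 14 heat shock genes, 9 had higher and 5 lower estimates, 0 passed in edgeR or, with the block, in edgeR, DESeq2 or limma-voom, and the median log2 change was 0.02. Hspa1b was sparse, at 0.992 to 2.55 CPM against 1.83 to 4.47 CPM, a log2 change of 0.87. Chordc1, Dnajb4 and Hspe1 had log2 changes of 0.16, 0.23 and 0.26.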

How the data were processed

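Per the labels' protocols, the sorted ILC2s were made into libraries with the Clontech SMARTer kit for very small amounts of RNA. STAR 2.3.0, CASAVA 1.8.2 and the mm10 build appear in the submitters' processing notes. The program that assigned reads to genes is not given in the sources used. The deposited values are raw read counts per Entrez gene ID, 1 column per library, and were not normalised by the authors, since they are whole numbers whose column sums differ. Symbols and coordinates came from RefSeq GRCm38.p6 for 25275 of 27179 IDs, and lengths from the longest GENCODE vM21 transcript.

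Counts were filtered with filterByExpr, scaled with TMM and tested with edgeR 4.0.16 (quasi-likelihood, robust dispersions, two-sided) in R 4.3.3, with Benjamini-Hochberg adjustment over all tested genes and a threshold of 5%. SE is that implied by the F statistic. DESeq2 1.42.0 and limma-voom (limma 3.58.1) were alternatives, with other scalings and filters, the replicate block and each library left out. Libraries of a gate differed by more than sampling noise (the lowest chi-square over its degrees of freedom was 31.5). Libraries sharing a number deviated together from their gate means across genes (r = 0.29, 0.67 and 0.43 for numbers 1, 2 and 3). The fit with the replicate block, which pairs libraries by number, was therefore set beside the main fit, which does not. No label states this pairing, for Chat negative 1 the correlation with Chat positive 3 was 0.30, and over the members alone the correlation for number 1 was 0.05. Members, lists and the rule for named genes were chosen with earlier results of these data known. Every member was described, those with an unadjusted p under 0.05 with or without the block, no overlap, or the highest level per length of their family in every library, and up to 4 genes of each related list by p. Counting error alone is covered by the limits given for 0 counts.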

Additional observations from a re-analysis of the deposited data

How the results depend on the processing

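The count of members past the threshold was 0 in edgeR and stayed 0 under every alternative scaling, filter and tool without the block, and with each library left out. With the replicate block it was 0 in edgeR and limma-voom and 6 in DESeq2, and 0 to 5 when both libraries of a number were left out, an alternative chosen after seeing the data. Those 5 came without number 3 and were Jund, Crem, Batf, Bhlhe40 and Gadd45b. The count over all genes was 1, Chat, and became 4 with DESeq2, 0 to 1 without each library, 44 with the replicate block, 476 with the block in DESeq2, 4 with the block and a correction for length and GC content, and 0 to 709 with the block and without a number (709 without number 3). Without the block and without number 2, also chosen after seeing the data, it was 2, and 0 members passed. In that fit 14 members lay above 0, and 6 had an unadjusted p under 0.05, against 1154 of all 13025 genes tested. The members' median log2 change ranged from -0.15 to 0.07 when a library was left out and from -0.12 to -0.03 under the other scalings, filters and models. Batf, Gadd45b, Crem, Bhlhe40, Klf6, Jund, Dusp1 and Dusp6 were among those that kept their sign in all 23 alternatives. The cause of these differences between fits was not tested. For members under about 1 CPM, such as Nr4a2 with 7 to 42 counts per library, depth limits what can be seen.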
